A study of Mus musculus with 3 samples.

Results

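The epidermal growth factor (EGF) family was examined in the injured mouse brain through 9 genes, chosen as a gene list out of the 55357 genes in the count matrices and followed across cell classes and libraries. The ligands were Hbegf, Tgfa, Areg, Ereg and Nrg1, and the receptors were Egfr, Erbb2, Erbb3 and Erbb4. The list was chosen by its transcript levels across cell classes and libraries in earlier results of these data, so those levels and ratios are given as descriptions. Groups of male C57BL/6 mice aged 6-8 weeks were compared through 3 single-cell libraries, 1 per group, from the left perilesional brain: sham controls, traumatic brain injury with vehicle (TBI+PBS) and traumatic brain injury with interleukin-25 (TBI+IL-25). IL-25 was given at 1 µg per mouse within 30 minutes of the injury and then daily over 3 days. The labels give neither the time of tissue collection nor the number of animals behind a library. No group had a second library, so no difference has a replicate check, no p-value is given, and the 95% intervals cover counting error only.

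EGF-family ligands are made as membrane proteins that metalloproteases of the ADAM family release, and iRhom proteins carry ADAM17 to the cell surface. HB-EGF and TGF-alpha bind EGFR, HB-EGF also binds ERBB4, and neuregulin-1 binds ERBB3 and ERBB4, while ERBB2 has no known ligand and serves as the partner in receptor pairs. In the brain, EGFR marks activated neural stem cells and reactive astrocytes, ERBB3 is a receptor of the oligodendrocyte lineage, and ERBB4 is best known from inhibitory neurons and their migrating precursors.

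After filtering, the libraries kept 8710 cells from sham, 10299 from TBI+PBS and 13532 from TBI+IL-25, with medians of 4111, 4666 and 3841 unique molecular identifiers (UMIs, counted transcripts) per cell. Cells were clustered jointly and a cluster was named only from marker genes, which gave 13 classes, led by astrocyte-like cells (3284, 4075 and 5460 in the sham, TBI+PBS and TBI+IL-25 libraries) and microglia-like cells (4998, 4589 and 5532). Astrocyte-like clusters were unequally shared: the Flnc- and Lif-led cluster 3 came to 98.1% from the TBI+IL-25 library, the Col5a3-led cluster 10 to 94.9% from TBI+PBS, and the Hapln1-led cluster 4 held 45.0% of the sham astrocyte-like cells against 10.5% and 11.5% in the injured libraries. Cluster 7, with 1, 448 and 1227 cells and a median of 824 UMIs, carried 10 of 10 astrocyte markers. It stayed unnamed because it was shallow and none of its leading genes was on the astrocyte marker list. The TBI+IL-25 library also stood apart in its ribosomal RNA share, 2.01% of UMIs against 0.175% in sham and 0.203% in TBI+PBS, and in haemoglobin transcripts, 0.147 CPM (UMIs per 1e6 UMIs) against 98.9 and 111. The part of these differences in the results below was not tested. Between 24 and 39 cell barcodes were shared by any pair of libraries.

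The family was unevenly divided between cell classes. Levels are CPM of the class, each library on its own. Astrocyte-like cells held 92.5% of all Hbegf UMIs, 90.1% of Egfr, 90.7% of Erbb2, 77.8% of Nrg1 and 59.9% of Erbb4. Oligodendrocyte-like cells held 92.9% of Erbb3. Tgfa was divided between microglia-like and astrocyte-like cells, and monocyte/macrophage-like cells held 72.7% of the 99 Areg UMIs. Ereg, which encodes epiregulin, had 2 UMIs in all 3 libraries together, both in TBI+PBS, in 1 choroid plexus epithelium-like and 1 ependymal cell-like cell.

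**Figure D1:**
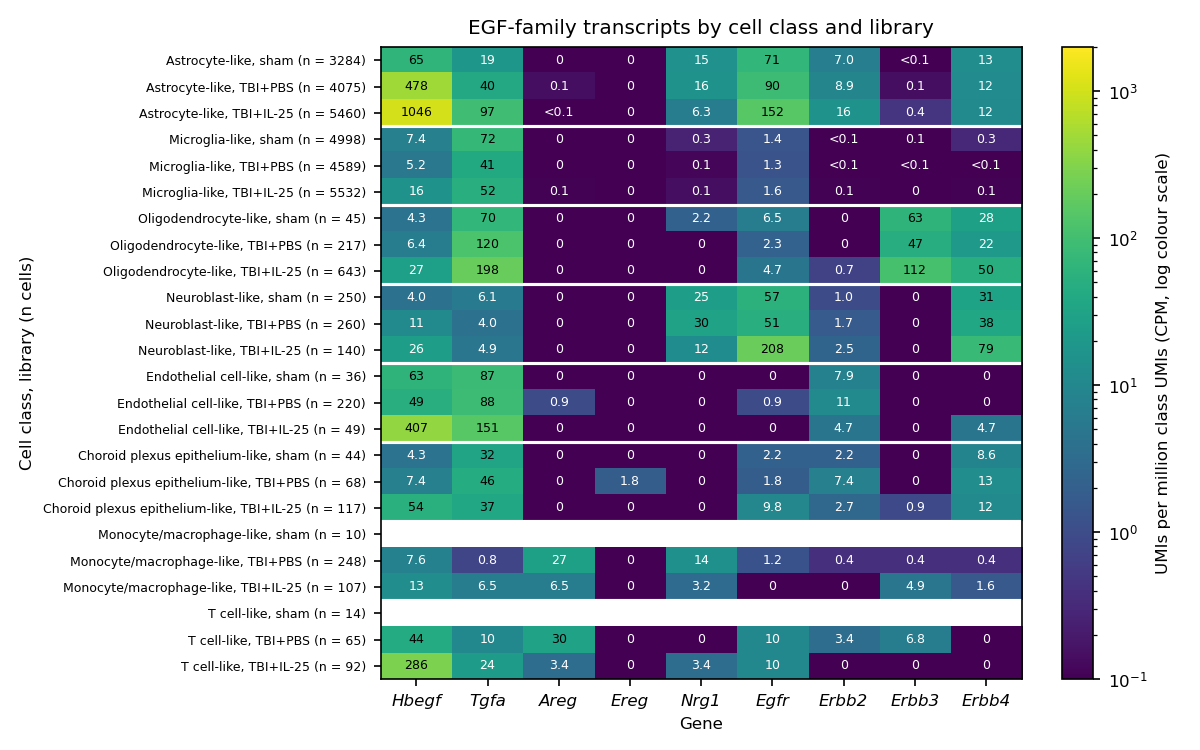
Level of each gene (CPM of the class, log colour scale) in 8 cell classes of the 3 libraries, with cell numbers beside each row and blank rows where a class had fewer than 30 cells. Hbegf was highest in astrocyte-like cells of the TBI+IL-25 library at 1046 CPM, and Erbb3 stood out in oligodendrocyte-like cells.

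**Figure D2:**
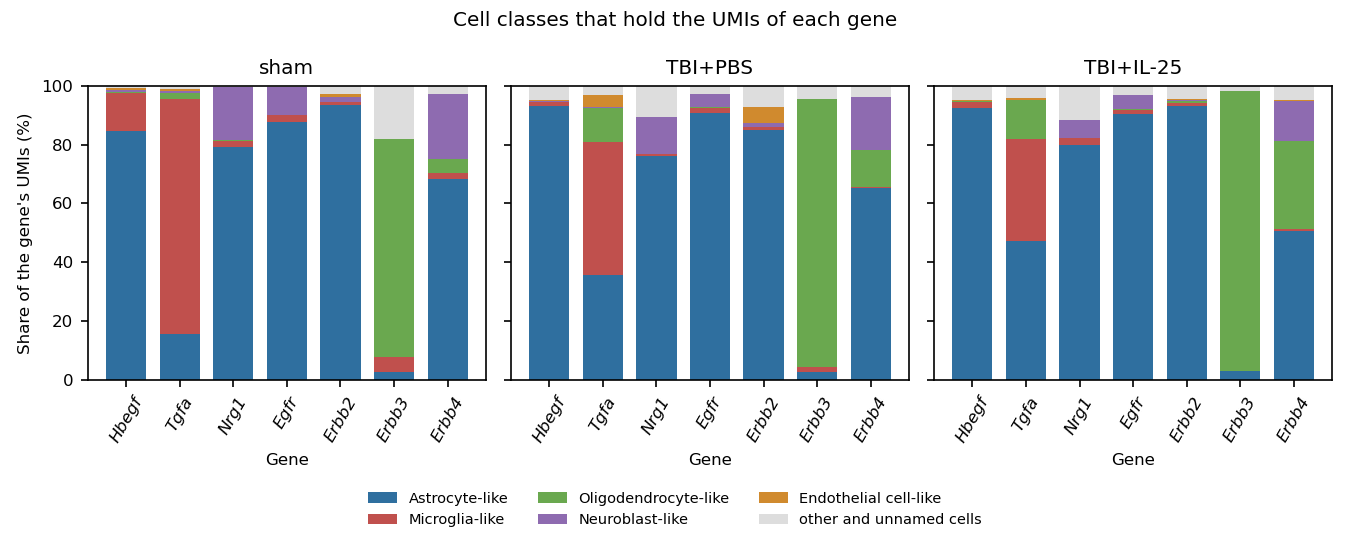
Share of each gene's UMIs (percent of all kept cells of a library) held by 5 cell classes and by all other cells, for 7 genes in the sham, TBI+PBS and TBI+IL-25 libraries. The microglia-like share of Tgfa was 80.1% in sham, 45.5% after TBI+PBS and 34.7% after TBI+IL-25.

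Of the 5 members whose RefSeq promoter sequences were used here, 3 had a higher astrocyte-like CPM in both injured libraries than in sham. These were the ligand gene Tgfa and the receptor genes Egfr and Erbb2, though for Erbb2 sham and TBI+PBS were close. Their promoter sequences are shown. Each is the 250 bases before the annotated start on GRCm38.p6, on the plus strand, 5′ to 3′, at chr6:86194972-86195221, chr11:16751953-16752202 and chr11:98412234-98412483. Sequences of 5 of the 9 members were used, and those of Hbegf, Ereg, Nrg1 and Erbb3 are not reported here.
Tgfa: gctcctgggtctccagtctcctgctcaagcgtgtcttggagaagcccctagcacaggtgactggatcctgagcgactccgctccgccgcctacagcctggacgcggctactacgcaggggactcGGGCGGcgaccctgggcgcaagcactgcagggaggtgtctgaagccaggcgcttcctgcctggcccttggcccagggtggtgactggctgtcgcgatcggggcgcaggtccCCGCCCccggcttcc
Egfr: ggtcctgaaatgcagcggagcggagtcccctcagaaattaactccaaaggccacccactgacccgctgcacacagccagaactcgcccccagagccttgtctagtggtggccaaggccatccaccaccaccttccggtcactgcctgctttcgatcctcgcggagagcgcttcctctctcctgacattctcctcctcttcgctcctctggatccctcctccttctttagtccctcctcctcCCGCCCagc
Erbb2: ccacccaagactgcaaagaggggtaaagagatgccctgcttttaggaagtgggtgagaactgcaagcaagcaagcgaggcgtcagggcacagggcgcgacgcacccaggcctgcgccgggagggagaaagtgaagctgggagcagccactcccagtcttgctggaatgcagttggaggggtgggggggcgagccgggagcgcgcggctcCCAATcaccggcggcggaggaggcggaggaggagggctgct
Capitals mark matches to 5 motifs searched on both strands: AP-1 (TGANTCA), CRE (TGACGTCA), the GC box (GGGCGG), the CCAAT box (CCAAT) and the TATA box (TATAAA). Tgfa had GC boxes at -126 to -121 and at -15 to -10 from the start, Egfr had 1 at -9 to -4, and Erbb2 had a CCAAT box at -41 to -37. A GC box was present in 32.7% of the 32851 promoters of the table, a CCAAT box in 33.8%, a TATA box in 12.4%, an AP-1 match in 6.75% and a CRE in 1.55%. GC content was 69.2% in Tgfa, 60.8% in Egfr and 66.0% in Erbb2, against a median of 52.4% over all promoters. The matches are a description of these windows only.

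Hbegf (ENSMUSG00000024486), which encodes heparin-binding EGF-like growth factor, was the ligand with the widest range between libraries. In astrocyte-like cells it was at 65.1 CPM in sham (95% interval 61.0 to 69.3), 478 in TBI+PBS (469 to 488) and 1046 in TBI+IL-25 (1032 to 1060). The order was sham, TBI+PBS, TBI+IL-25, and the counting intervals did not overlap. The ratio was 7.35 for TBI+PBS against sham (6.87 to 7.86), 2.19 for TBI+IL-25 against TBI+PBS (2.14 to 2.24) and 16.1 for TBI+IL-25 against sham (15.1 to 17.2). The ratio depended on whether cluster 10 was counted as astrocyte-like: with a naming setting that left it unnamed, it was 3.78 for TBI+PBS against sham and 4.28 for TBI+IL-25 against TBI+PBS.

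More astrocyte-like cells held an Hbegf transcript after injury, and those that did held more of it. An Hbegf UMI was found in 22.1% of astrocyte-like cells in sham, 47.3% after TBI+PBS and 61.8% after TBI+IL-25, and in 4.75%, 23.0% and 41.7% after every cell was thinned to 1000 UMIs. The thinned share in microglia-like cells was 0.632%, 0.684% and 1.53%. Median depths were 4511, 4664 and 3467 UMIs in astrocyte-like and 3917, 4748 and 4730 in microglia-like cells. Positive astrocyte-like cells held a median of 1 Hbegf UMI in sham, 2 after TBI+PBS and 4 after TBI+IL-25. Cells with at least 5 Hbegf UMIs numbered 2 of 3284 in sham, 582 of 4075 in TBI+PBS and 1503 of 5460 in TBI+IL-25, and the highest single cell held 5, 93 and 87 UMIs.

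Within astrocyte-like cells, Hbegf differed by cluster as well as by library. In the Agt-led cluster 2, Hbegf was at 52.3 CPM in sham, 69.7 after TBI+PBS and 103 after TBI+IL-25. In the Hapln1-led cluster 4 the values were 71.4, 106 and 131. Both clusters kept the order of the libraries with ratios far below those of the whole class, 1.33 and 1.49 for TBI+PBS against sham. Cluster 14, led by Crym and Six3, had 62.2, 139 and 589 CPM, a ratio of 4.24 for TBI+IL-25 against TBI+PBS. Cluster 8, a shallow cluster with a median of 800 UMIs, had 59.0, 246 and 208 CPM. Among clusters with 100 or more cells in both libraries, it was the one where the TBI+IL-25 level was below that of TBI+PBS. That ratio was 0.845 (0.617 to 1.14), an interval that includes 1. The Lcn2-led cluster 15, nearly absent from sham, had 710 CPM after TBI+PBS and 1126 after TBI+IL-25, a ratio of 1.59 (1.49 to 1.69). The highest level, 1440 CPM, was in cluster 3 of the TBI+IL-25 library. Hbegf was among the genes the clustering used and among the leading genes of that cluster, so this level is a description of the cluster.

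The clusters that carried the transcript also changed between libraries. Of the astrocyte-like Hbegf UMIs, 67.4% lay in cluster 4 for sham, 71.2% in cluster 10 for TBI+PBS, and 83.0% in cluster 3 for TBI+IL-25. The unnamed cluster 7 had 704 CPM after TBI+PBS and 755 after TBI+IL-25.

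**Figure D3:**
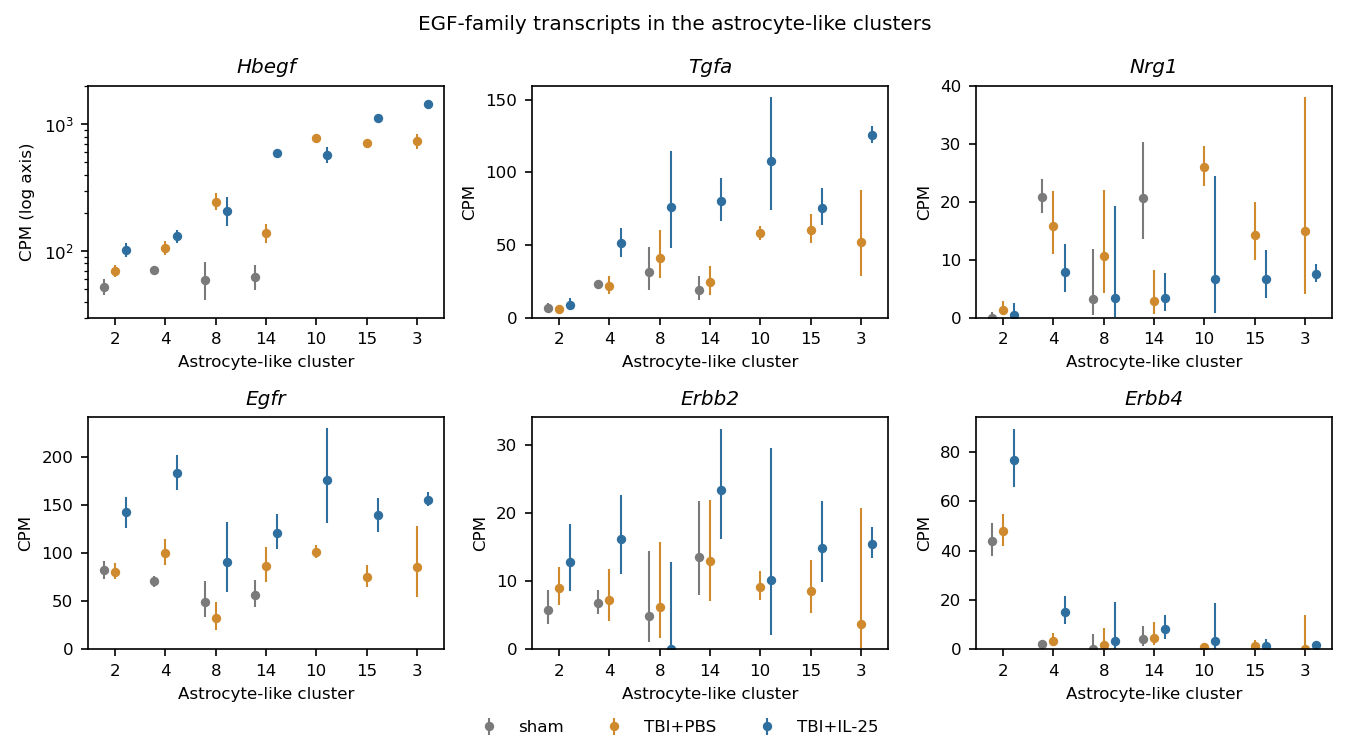
Level (CPM, Hbegf on a log axis) of 6 genes in 7 astrocyte-like clusters of the 3 libraries, points with 95% counting intervals for clusters with 50 or more cells in a library. Hbegf was high in clusters 10, 15 and 3, Erbb4 was concentrated in cluster 2 (44.1, 48.1 and 77.0 CPM), and Nrg1 was near 0 there.

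In microglia-like cells Hbegf was at 7.44 CPM in sham, 5.21 after TBI+PBS and 16.2 after TBI+IL-25. TBI+PBS was 0.701 of sham (0.549 to 0.893) and TBI+IL-25 was 3.12 times TBI+PBS (2.56 to 3.82). The microglia-like level was 11.4%, 1.09% and 1.55% of the astrocyte-like level. Of the astrocyte markers, 10 of 10 were detected in microglia-like cells, and their sum, 586, 372 and 483 CPM, was 2.32%, 1.51% and 2.04% of its astrocyte-like value. In the injured libraries the Hbegf share was therefore at or below that of the astrocyte markers, and it cannot be told apart from stray astrocyte RNA. Without cells that held 10 or more astrocyte-marker UMIs, a choice made after the data were seen, microglia-like Hbegf was 7.19, 4.82 and 11.0 CPM. Within microglia-like clusters the ratio of TBI+PBS to sham was 0.873 (0.460 to 1.56) in cluster 1, 1.08 (0.561 to 1.94) in cluster 5 and 1.68 (0.597 to 6.55) in cluster 6, intervals that each include 1.

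High Hbegf in T cell-like and choroid plexus epithelium-like cells of TBI+IL-25 came from few cells. In TBI+IL-25 T cell-like cells, 286 CPM came from 84 UMIs in 6 cells that also held 959 astrocyte-marker UMIs, and the level was 4.06 CPM without such cells. Choroid plexus epithelium-like cells of that library went from 53.7 to 4.62 CPM in the same way. Endothelial cell-like cells had 63.2 CPM in sham, 49.3 after TBI+PBS and 407 after TBI+IL-25, a ratio of 8.25 for TBI+IL-25 against TBI+PBS (5.78 to 11.9) over 49 and 220 cells. One cell held 48 of the 86 UMIs in TBI+IL-25, and the level was 185 CPM, from 38 UMIs in 24 cells, without it. Leaving out cells with 10 or more astrocyte-marker UMIs gave endothelial cell-like levels of 68.5, 46.9 and 464 CPM. Endothelial cell-like Hbegf was 97.1%, 10.3% and 38.9% of the astrocyte-like level, against 2.50%, 1.96% and 3.89% for the summed astrocyte markers. Neuroblast-like cells had 4.05, 11.3 and 25.9 CPM and oligodendrocyte-like cells 4.35, 6.43 and 26.9. Without cells that carried 10 or more astrocyte-marker UMIs, these became 5.18, 6.32 and 15.1 in neuroblast-like and 0, 4.99 and 15.2 in oligodendrocyte-like cells. Neuroblast-like Hbegf was 6.22%, 2.37% and 2.48% of the astrocyte-like level, against 2.93%, 3.03% and 5.07% for the summed astrocyte markers. Oligodendrocyte-like Hbegf was 6.68%, 1.34% and 2.57% of that level, against 4.85%, 1.62% and 3.18% for the markers. In the injured libraries, Hbegf of these 2 classes cannot be told apart from astrocyte RNA.

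Tgfa (ENSMUSG00000029999), which encodes transforming growth factor alpha, was lower after injury in microglia-like cells and higher in astrocyte-like and oligodendrocyte-like cells. Its microglia-like level was 72.2 CPM in sham, 41.3 after TBI+PBS and 52.2 after TBI+IL-25. Sham was highest and TBI+PBS lowest, with ratios of 0.573 for TBI+PBS against sham (0.528 to 0.621) and 1.26 for TBI+IL-25 against TBI+PBS (1.17 to 1.37). Over all genes measured in microglia-like cells, the median log2 ratio of TBI+PBS against sham was itself -0.16, and with size factors in place of class totals the Tgfa ratio was 0.635. A Tgfa UMI was found in 23.6%, 19.3% and 21.8% of microglia-like cells, and in 6.83%, 4.50% and 5.10% after thinning.

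Tgfa also differed between the microglia-like clusters, whose shares differed between libraries. In the P2ry12-led cluster 1, Tgfa was at 75.5 CPM in sham, 47.0 after TBI+PBS and 75.5 after TBI+IL-25. In cluster 6 the levels were 59.7, 56.0 and 69.0 CPM, with a ratio of 0.938 for TBI+PBS against sham. The Spp1-led cluster 9, with 5 sham cells, had the low levels of 22.9 CPM after TBI+PBS and 36.8 after TBI+IL-25.

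Astrocyte-like Tgfa was 18.7 CPM in sham, 39.8 after TBI+PBS and 97.1 after TBI+IL-25. Sham was lowest and TBI+IL-25 highest, with ratios of 2.13 (1.85 to 2.45) for TBI+PBS against sham and 2.44 (2.25 to 2.65) for TBI+IL-25 against TBI+PBS. Thinned shares of positive cells were 1.51%, 3.15% and 8.45%. Microglia markers were detected in astrocyte-like cells, 10 of 10, with sums of 1492, 1240 and 689 CPM, which are 3.13%, 2.80% and 1.89% of their microglia-like level. Tgfa in astrocyte-like cells was 25.9%, 96.3% and 186% of its microglia-like level, above those shares in all 3 libraries. Cluster 2 stayed at 6.83, 5.88 and 8.66 CPM, while cluster 4 was at 22.8, 21.6 and 51.1, a ratio of 2.36 for TBI+IL-25 against TBI+PBS (1.67 to 3.40). The injury-associated clusters were higher, with 58.0 CPM in cluster 10 of TBI+PBS and 126 in cluster 3 of TBI+IL-25.

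Oligodendrocyte-like Tgfa was 69.5 CPM in sham, 120 after TBI+PBS and 198 after TBI+IL-25, over 45, 217 and 643 cells. The ratios were 1.73 (1.20 to 2.58) for TBI+PBS against sham and 1.65 (1.42 to 1.91) for TBI+IL-25 against TBI+PBS. Endothelial cell-like cells had 86.9, 88.2 and 151 CPM, with TBI+PBS 1.02 times sham and TBI+IL-25 1.72 times TBI+PBS (1.11 to 2.59). By share of UMIs, microglia-like cells held most Tgfa in sham, 80.1%, and astrocyte-like cells held most in TBI+IL-25, 47.3%.

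Areg (ENSMUSG00000029378), which encodes amphiregulin, a ligand of EGFR known from type 2 immune cells and repair macrophages, had 0 UMIs in sham, 89 after TBI+PBS and 10 after TBI+IL-25. Of the 89, 68 lay in monocyte/macrophage-like cells, a level of 27.3 CPM (21.2 to 34.6), and TBI+IL-25 had 4 UMIs in that class, 6.50 CPM. The ratio of TBI+IL-25 to TBI+PBS there was 0.238 (0.0631 to 0.638). It rested on few cells: 8 of 248 were positive and 6 of them held 66 UMIs. Arg1, the arginase of alternatively activated macrophages, was detected in those 6 cells. It was also the leading gene of the whole class and among its naming markers, so it does not set these cells apart. A further 9 UMIs lay in 1 T cell-like TBI+PBS cell that also held 8 Cd3e, 2 Gata3 and 4 Il1rl1 UMIs, and 8 lay in ependymal cell-like TBI+PBS cells.

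Nrg1 (ENSMUSG00000062991), the neuregulin-1 gene, was carried by astrocyte-like and neuroblast-like cells. In astrocyte-like cells it was at 14.8 CPM in sham, 15.9 after TBI+PBS and 6.34 after TBI+IL-25. The sham and TBI+PBS intervals overlapped and TBI+IL-25 lay below both, with ratios of 1.07 (0.901 to 1.28) for TBI+PBS against sham and 0.399 (0.323 to 0.491) for TBI+IL-25 against TBI+PBS. Neuroblast-like cells gave 25.3, 30.0 and 12.4 CPM from 50, 53 and 10 UMIs, and a ratio of 0.412 (0.187 to 0.818) for TBI+IL-25 against TBI+PBS. Both astrocyte-like ratios moved when cluster 10 was left unnamed, to 0.534 and 0.802, since that cluster held 72.1% of the TBI+PBS astrocyte-like Nrg1 UMIs.

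Nrg1 marked some astrocyte-like clusters and was near 0 in another. Cluster 2 had 0, 6 and 1 UMIs in the 3 libraries. Cluster 4 had 20.8, 15.8 and 7.79 CPM, and within it TBI+IL-25 was 0.494 of TBI+PBS (0.255 to 0.917). In cluster 15 the levels were 14.3 and 6.62 CPM, a ratio of 0.463 (0.219 to 0.913). Cluster 14 was at 20.7 CPM in sham against 2.79 and 3.33 in the injured libraries. Monocyte/macrophage-like cells of TBI+PBS also held Nrg1, at 14.4 CPM from 36 UMIs in 17 cells, against 2 UMIs in TBI+IL-25.

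**Figure D4:**
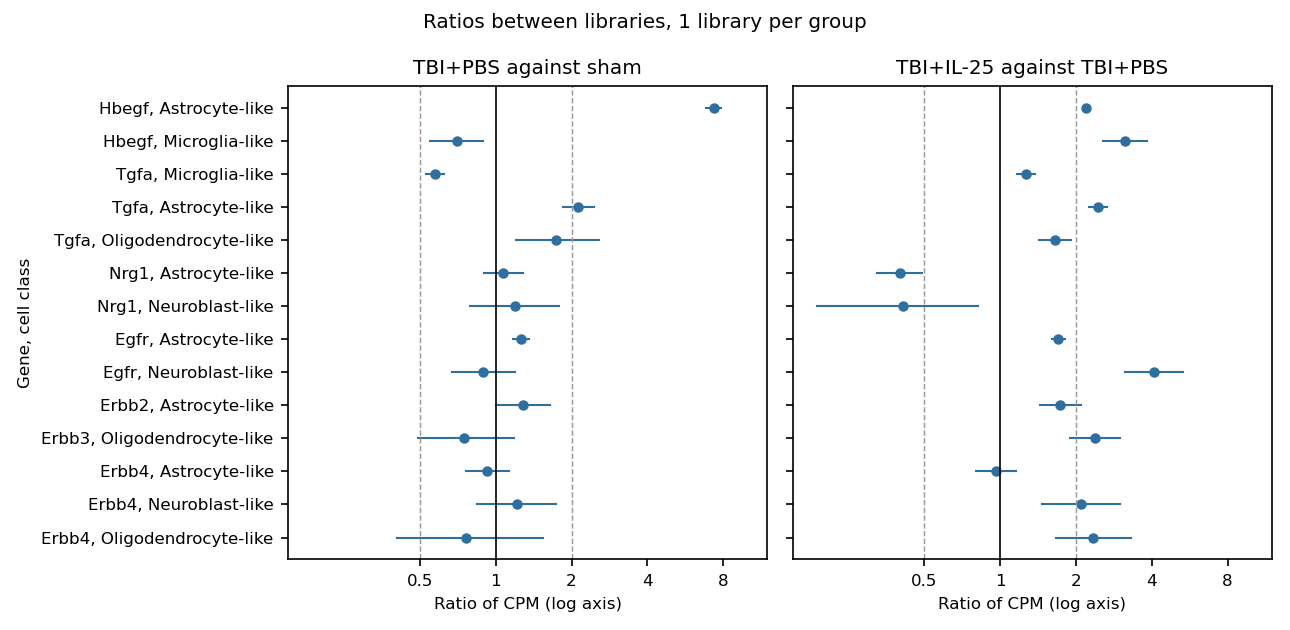
Ratio of CPM between libraries (log axis, points with 95% counting intervals) for 14 pairs of gene and cell class, TBI+PBS against sham and TBI+IL-25 against TBI+PBS; dashed lines mark 2-fold. Hbegf in astrocyte-like cells was highest for TBI+PBS against sham at 7.35, and Nrg1 lay below 1 for TBI+IL-25 against TBI+PBS in both classes shown.

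Egfr (ENSMUSG00000020122), the receptor for HB-EGF, TGF-alpha and amphiregulin, was highest by library in TBI+IL-25 in both classes that carried it. Astrocyte-like cells had 71.2 CPM in sham, 89.7 after TBI+PBS and 152 after TBI+IL-25. The intervals did not overlap, and the ratios were 1.26 (1.17 to 1.36) for TBI+PBS against sham and 1.70 (1.60 to 1.80) for TBI+IL-25 against TBI+PBS. An Egfr UMI was found in 25.0%, 31.5% and 37.6% of astrocyte-like cells, and in 5.95%, 7.65% and 14.0% after thinning, against 0.183%, 0.110% and 0.168% of thinned microglia-like cells. Microglia-like Egfr, 1.38, 1.27 and 1.61 CPM, was 1.93%, 1.42% and 1.06% of the astrocyte-like level, below the share of the summed astrocyte markers found there.

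Unlike Hbegf, Egfr was spread over the astrocyte-like clusters. Cluster 2 had 81.9, 80.3 and 142 CPM and cluster 4 had 70.2, 100 and 183 in sham, TBI+PBS and TBI+IL-25. Cluster 10 was at 101 CPM in TBI+PBS and cluster 3 at 155 in TBI+IL-25. The ratio of TBI+IL-25 to TBI+PBS was 1.76 in cluster 2, 1.83 in cluster 4 and 1.85 in cluster 15. Ligand and receptor transcripts met in the same cells: among astrocyte-like cells of at least 1000 UMIs, 265 of 2840 in sham, 788 of 3646 in TBI+PBS and 1490 of 5086 in TBI+IL-25 held both Hbegf and Egfr. Egfr was found in 37.5%, 42.4% and 45.0% of Hbegf-positive cells and in 25.2%, 27.1% and 30.5% of Hbegf-negative cells. These shares are as counted, with cells of unequal depth, and the difference was not tested. After thinning to equal depth, 12, 64 and 316 cells held both. Whether these counts exceed those of independent detection was not tested.

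Neuroblast-like cells, migrating precursors of inhibitory neurons with markers such as Dcx and Dlx2, had 57.2 CPM of Egfr in sham, 50.9 after TBI+PBS and 208 after TBI+IL-25, a ratio of 4.08 (3.14 to 5.32) for TBI+IL-25 against TBI+PBS. TBI+PBS was 0.891 of sham. An Egfr UMI was found in 16.4%, 12.7% and 27.1% of the cells, and in 2.94%, 4.44% and 7.58% after thinning. Few cells carried much of the level: the 168 UMIs after TBI+IL-25 lay in 38 of 140 cells, with 36 in the highest cell and 5 or more in 9 cells, and the highest cell held 10 UMIs in sham and 10 after TBI+PBS.

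Erbb2 (ENSMUSG00000062312), the partner receptor without a ligand, followed the order of Egfr at few counts. Astrocyte-like cells had 6.98 CPM in sham, 8.94 after TBI+PBS and 15.5 after TBI+IL-25, from 103, 182 and 318 UMIs. Sham and TBI+PBS were close, with a ratio of 1.28 (1.00 to 1.65), and TBI+IL-25 was 1.73 times TBI+PBS (1.44 to 2.09). Cluster 2 had 5.78, 8.93 and 12.8 CPM, and cluster 4 had 6.73, 7.21 and 16.1. Oligodendrocyte-like cells had 0, 0 and 2 Erbb2 UMIs; a count of 0 allows up to 6.52 CPM in sham and 1.38 in TBI+PBS. Endothelial cell-like cells of TBI+PBS had 11.4 CPM from 12 UMIs.

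Erbb3 (ENSMUSG00000018166), a neuregulin receptor whose own kinase is weak, was found mainly in oligodendrocyte-like cells, at 63.0 CPM in sham, 47.3 after TBI+PBS and 112 after TBI+IL-25. TBI+IL-25 lay above the other two, 2.38 times TBI+PBS (1.90 to 3.00), and TBI+PBS was 0.750 of sham (0.493 to 1.18) from 103 and 29 UMIs. The share of positive cells did not follow that order, with 37.8%, 30.9% and 31.4% as counted and 2.22%, 6.57% and 9.59% after thinning, at median depths of 10264, 8400 and 3913 UMIs. In astrocyte-like cells Erbb3 had 13 UMIs in all 3 libraries. The 9 oligodendrocyte markers, all detected, moved the other way in TBI+IL-25: their sum was 73345, 58408 and 35089 CPM, and Mog, a gene of mature myelin, was at 2036, 1705 and 633. Pdgfra, the defining gene of oligodendrocyte precursors, had 0 UMIs in the class in each library. The part of this shift in the Tgfa, Erbb3 and Erbb4 values of the class was not tested.

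Erbb4 (ENSMUSG00000062209), which binds neuregulins and HB-EGF, had nearly equal levels in astrocyte-like cells as a whole, 12.9 CPM in sham, 11.9 after TBI+PBS and 11.5 after TBI+IL-25. Its ratios were 0.927 (0.763 to 1.13) for TBI+PBS against sham and 0.964 (0.802 to 1.16) for TBI+IL-25 against TBI+PBS, and they became 1.61 and 0.559 with cluster 10 unnamed. Cluster 2 held 88.4%, 90.9% and 71.6% of these UMIs. Within it Erbb4 was at 44.1 CPM in sham, 48.1 after TBI+PBS and 77.0 after TBI+IL-25, with TBI+IL-25 1.60 times TBI+PBS (1.30 to 1.97). Cluster 4 had 1.88, 3.15 and 15.1 CPM. Cluster 2 was 29.0%, 29.0% and 17.1% of the astrocyte-like cells. Erbb4 and Nrg1 thus lay in different astrocyte-like cells: of those with at least 1000 UMIs, 165, 205 and 201 held Erbb4, 176, 271 and 113 held Nrg1, and 0, 2 and 1 held both.

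Neuroblast-like and oligodendrocyte-like Erbb4 was higher in TBI+IL-25. Neuroblast-like cells had 31.4, 37.9 and 79.1 CPM in sham, TBI+PBS and TBI+IL-25, a ratio of 2.09 (1.46 to 2.98) for TBI+IL-25 against TBI+PBS. Oligodendrocyte-like cells had 28.3, 21.6 and 50.2 CPM, a ratio of 2.33 (1.66 to 3.31).

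Counted over the list, a gene was called when its ratio was at least 2 or at most 0.5 with 20 or more UMIs over the 2 libraries. In astrocyte-like cells 6 of 9 members had enough UMIs. For TBI+PBS against sham, 2 of the 6 were called higher (Hbegf and Tgfa) and 0 lower, with 7.16% of all 16533 measured genes called higher and 5.92% lower. For TBI+IL-25 against TBI+PBS, 2 were higher (Hbegf and Tgfa) and 1 lower (Nrg1), against 4.98% and 11.8% of all genes. For TBI+IL-25 against sham, 4 were higher (Hbegf, Tgfa, Egfr and Erbb2) and 1 lower (Nrg1), against 12.1% and 22.4%. The median log2 ratio was 0.34, 0.78 and 1.12 over the members and -0.05, -0.20 and -0.27 over all measured genes. The members were chosen with these values in view, so nothing is read from their counts.

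In microglia-like, oligodendrocyte-like and neuroblast-like cells 3 or 4 members were measured. Microglia-like cells had 0 of 3 called for TBI+PBS against sham, where 6.92% of genes were higher and 7.80% lower. There 1 of 3, Hbegf, was higher for TBI+IL-25 against TBI+PBS (6.41% of genes higher, 4.67% lower) and for TBI+IL-25 against sham (11.9% higher, 15.3% lower). Microglia-like Hbegf after TBI+IL-25 was 1.55% of its astrocyte-like level, against 2.04% for the summed astrocyte markers. Oligodendrocyte-like cells had 0 of 3 called for TBI+PBS against sham (9.80% higher, 2.80% lower). They had 3 of 4 higher for TBI+IL-25 against TBI+PBS (6.23% higher, 7.65% lower), namely Hbegf (4.19), Erbb3 (2.38) and Erbb4 (2.33). For TBI+IL-25 against sham 2 of 4 were higher (14.9% higher, 8.47% lower). Oligodendrocyte-like Hbegf was 1.34% and 2.57% of its astrocyte-like level after TBI+PBS and TBI+IL-25, against 1.62% and 3.18% for the summed astrocyte markers. Neuroblast-like cells had 1 of 4, Hbegf, higher for TBI+PBS against sham (2.10% higher, 1.61% lower). That call rested on 8 and 20 UMIs, and without cells that held 10 or more astrocyte-marker UMIs the levels of 5.18 and 6.32 CPM did not reach 2-fold. Neuroblast-like cells had 3 of 4 higher and 1 lower both for TBI+IL-25 against TBI+PBS (2.75% higher, 7.09% lower) and for TBI+IL-25 against sham (3.05% higher, 7.80% lower). Hbegf was among the higher genes, and after TBI+IL-25 it was 2.48% of its astrocyte-like level, against 5.07% for the summed astrocyte markers.

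Genes that act around the receptors were described in lists by function, by the same rule. The shares over all genes are for TBI+PBS against sham, TBI+IL-25 against TBI+PBS and TBI+IL-25 against sham, in that order. Of all genes measured in astrocyte-like cells, 7.16%, 4.98% and 12.1% were higher and 5.92%, 11.8% and 22.4% lower. In microglia-like cells 6.92%, 6.41% and 11.9% were higher and 7.80%, 4.67% and 15.3% lower. In astrocyte-like cells the ligands outside the 9 were called in neither direction for TBI+PBS against sham (0 of 4), and 2 of 4 were lower for TBI+IL-25 against TBI+PBS. Egf itself was at 5.15 CPM in sham, 3.78 after TBI+PBS and 1.66 after TBI+IL-25, a ratio of 0.438 (0.284 to 0.664) for TBI+IL-25 against TBI+PBS. Nrg2, another neuregulin gene, had 9.36, 7.52 and 5.66 CPM.

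Among sheddases and iRhoms, 2 of 6 were higher for TBI+PBS against sham and 1 of 6 lower for TBI+IL-25 against TBI+PBS in astrocyte-like cells. Rhbdf1, which encodes iRhom1, was at 28.2, 109 and 49.4 CPM, so TBI+PBS was highest. It was among the leading genes of cluster 10, which came to 94.9% from TBI+PBS, and its levels without that cluster were not computed. Adam12, a sheddase of HB-EGF, had 2, 110 and 83 UMIs. Adam9 was at 11.3, 14.3 and 20.7 CPM. In microglia-like cells 2 of 5 were higher for TBI+PBS against sham, Rhbdf2 (iRhom2) at 9.99 and 22.3 CPM and Adam9 at 22.8 and 49.8, and 0 of 5 were called for TBI+IL-25 against TBI+PBS, where Adam17 went from 124 to 165 CPM.

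In the HB-EGF partner list, 3 of 5 genes were called higher in astrocyte-like cells for TBI+PBS against sham (7.16% of all genes), 2 of 5 for TBI+IL-25 against TBI+PBS (4.98%) and 4 of 5 for TBI+IL-25 against sham (12.1%). Cd44, a hyaluronan receptor whose heparan sulphate forms hold HB-EGF, was at 9.09, 238 and 538 CPM. Cd9, a tetraspanin that binds the HB-EGF precursor, had 350 CPM in sham and 985 in TBI+PBS, and the syndecan gene Sdc4 had 669, 1467 and 2978. Microglia-like cells had 2 of 4 higher for TBI+PBS against sham, including Sdc4 at 27.2 and 118 CPM, and 0 of 5 for TBI+IL-25 against TBI+PBS. For TBI+PBS against sham, 0 of 5 were called in oligodendrocyte-like cells (9.80% of all genes higher). In neuroblast-like cells 1 of 4 was called (2.10%), and 0 of 3 in endothelial cell-like cells. For TBI+IL-25 against TBI+PBS, 1 of 5 was higher in oligodendrocyte-like cells (6.23%) and 0 of 4 in neuroblast-like cells (2.75%). Endothelial cell-like cells had 2 of 3 higher there, with a median log2 ratio of 1.05 (all genes -0.07), and 2 of 3 higher for TBI+IL-25 against sham. The share of all genes called was not computed for endothelial cell-like cells.

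Targets and feedback genes of ERK, the kinase pathway below the receptors, were more often higher than lower in both classes. In astrocyte-like cells 8 of 14 were called higher for TBI+PBS against sham with a median log2 ratio of 1.33 (all genes: 7.16% higher, median -0.05). For TBI+IL-25 against TBI+PBS 3 were higher and 2 lower with a median of 0.42 (all genes: 4.98% higher, 11.8% lower, median -0.20). Fosl1, an AP-1 subunit gene, had 1 UMI in sham, 645 after TBI+PBS and 2380 after TBI+IL-25, which is 31.7 and 116 CPM in the injured libraries. Fosl1 was also among the leading genes of cluster 3, which came to 98.1% from TBI+IL-25. Dusp5, a phosphatase that acts on nuclear ERK, was at 0.407, 18.3 and 52.3 CPM, and Ier3 went from 75.7 CPM in TBI+PBS to 344 in TBI+IL-25. In microglia-like cells 5 of 13 were higher for TBI+PBS against sham (6.92% of all genes) and 6 of 14 for TBI+IL-25 against TBI+PBS (6.41%). Phlda1 there was at 5.20 CPM in sham and 34.9 in TBI+PBS. Many of these genes answer to other pathways as well.

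In astrocyte-like cells 0 of 10 adaptors and signal transducers were called for TBI+PBS against sham, 0 for TBI+IL-25 against TBI+PBS and 1, Gab1, higher for TBI+IL-25 against sham. Gab1, a docking protein of EGFR, had 29.1, 32.2 and 63.9 CPM in sham, TBI+PBS and TBI+IL-25, a ratio of 1.99 for TBI+IL-25 against TBI+PBS that was just under the threshold. Mapk3, which encodes ERK1, had 41.4, 37.0 and 22.3, a ratio of 0.604. In microglia-like cells 1 of 10 was lower for TBI+PBS against sham, Gab1 with 39.5 and 13.6 CPM. Of the inhibitors, 2 of 10 were higher in astrocyte-like cells for TBI+PBS against sham, 1 of 10 for TBI+IL-25 against TBI+PBS and 3 of 10 for TBI+IL-25 against sham. Lrig1, which drives EGFR breakdown, was at 128, 274 and 388 CPM, and Socs5 at 18.4, 40.9 and 99.0. In microglia-like cells Lrig1 was higher (1.73 and 3.90 CPM) and Lrig3 lower (17.6 and 8.63 CPM) for TBI+PBS against sham. There 0 of 10 were called for TBI+IL-25 against TBI+PBS. The Lrig1 levels were low beside the 128 and 274 CPM of astrocyte-like cells. Summed astrocyte markers in microglia-like cells were at 2.32% and 1.51% of their astrocyte-like level, so Lrig1 there cannot be told apart from stray astrocyte RNA.

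Immediate early and dissociation genes, which tissue digestion at 37 °C can induce, were measured in the same cells. In astrocyte-like cells, where Hbegf and Tgfa were higher, 11 of 16 were also higher for TBI+PBS against sham (7.16% of all genes), with a median log2 ratio of 1.93. For TBI+IL-25 against TBI+PBS 4 of 16 were higher (4.98%), with a median of 0.58. Socs3 was at 5.56, 290 and 826 CPM and Atf3 at 8.20, 38.3 and 122. In oligodendrocyte-like cells 9 of 16 were higher for TBI+PBS against sham (9.80% of all genes) with a median of 1.49. For TBI+IL-25 against TBI+PBS 8 were higher and 2 lower (6.23% and 7.65%), with a median of 0.99. In microglia-like cells 4 of 16 were higher for TBI+PBS against sham (6.92% of all genes) with a median of -0.02. For TBI+IL-25, 2 of 16 were higher against TBI+PBS (6.41%) with a median of 0.56, and 7 of 16 against sham (11.9%) with a median of 0.47. Neuroblast-like cells had 0 of 15 called for TBI+PBS against sham (2.10% of all genes higher, 1.61% lower), with a median of -0.36. For TBI+IL-25 against TBI+PBS 2 of 15 were higher (2.75%), with a median of 0.54. The part of dissociation in the values of the members was not tested.

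The genes whose levels were most like each member over 30 combinations of class and library are given as a description, by Pearson's r of log2(CPM + 10) over 15244 genes; the points share libraries and clustering. Hbegf was most like Lrig1, Ier5l and Fosl1 (each r = 0.84), and Tgfa most like Tmem30a (r = 0.82). Nrg1 was most like Dpp6 and Sox1 (r = 0.88), Egfr like Hectd2 (r = 0.87) and Ncan (r = 0.86), and Erbb2 like Zic5 (r = 0.86). Erbb3 was most like Sec14l5 (r = 0.98) and Myrf (r = 0.97), and Erbb4 like Scg5 (r = 0.92) and Sox2ot (r = 0.91).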

How the data were processed

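Single-cell suspensions were run on the 10x Genomics 3′ v3.1 chemistry, per the labels' protocols. The deposited matrices hold raw UMI counts per gene and cell. Cell Ranger 7.1.0 made the sham and TBI+PBS matrices and 7.2.0 the TBI+IL-25 matrix, per the file headers; per the submitters' processing notes, Seurat 4.4.0 and the GRCm39 build were also used. Over all deposited barcodes (8939, 10643 and 14222), the totals were 39536447, 58148289 and 61372408 UMIs in sham, TBI+PBS and TBI+IL-25. The 3′ counts are not scaled to gene length, so levels are compared between cells and libraries and not between genes.

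A cell needed 500 or more UMIs, 300 or more genes and no more than 20% of UMIs from mitochondrial genes. Scrublet scored doublets, which were removed above a score of 0.2, which took 211, 303 and 635 barcodes (2.36%, 2.85% and 4.46%). Joint clustering used 2000 variable genes, Hbegf and Areg among them, 30 principal components, 15 neighbours and Leiden at resolution 1 (scanpy 1.11.5, leidenalg 0.10.2, Python 3.11.15), with no batch correction. A cluster took a name from its marker list and top genes by fold with 5 CPM added, a value chosen after the data were seen; 1 and 10 CPM were tried too. UMIs were summed per class and library; Poisson intervals for levels, conditional binomial intervals for ratios and Clopper-Pearson intervals for shares were exact, at 95%. A count of 0 was bounded by 3 counts. The code was tested on simulated data.

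The members and lists were chosen with earlier results of these data known. In each list the text names, for astrocyte-like and microglia-like cells, genes among the 2 with the largest log2 ratio in a comparison among those with 50 or more UMIs. Likeness used genes with 200 or more UMIs and class-library units of 20 or more cells. The alternatives were resolution 0.5, doublets kept, members and lists left out of the variable genes, cells classed one by one from their marker scores, cells weighed equally, cells of at least 1000 UMIs, and size factors. Promoter sequences came from a RefSeq table on GRCm38.p6; coordinates on the build of the count files are not used here.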

Additional observations from a re-analysis of the deposited data

Results flagged for a closer look

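Hbegf and Tgfa had ratios on opposite sides of 1 in different cell classes under the same contrast, and whether the ratios differ between classes was not tested, since each group had 1 library. For TBI+PBS against sham, the Hbegf ratio was 0.701 in microglia-like cells, 7.35 in astrocyte-like cells and 2.80 in neuroblast-like cells. The ratios outside astrocyte-like cells rest on low levels: after TBI+PBS, microglia-like and neuroblast-like Hbegf was 1.09% and 2.37% of the astrocyte-like level, below the 1.51% and 3.03% of the summed astrocyte markers. Without cells that held 10 or more astrocyte-marker UMIs, the neuroblast-like levels were 5.18 CPM in sham and 6.32 after TBI+PBS. Within microglia-like clusters 1, 5 and 6 the ratios were 0.873, 1.08 and 1.68, each with an interval that includes 1. For the same contrast the Tgfa ratio was 0.573 in microglia-like cells, 2.13 in astrocyte-like cells and 1.73 in oligodendrocyte-like cells. For TBI+IL-25 against sham it was 0.724, 5.19 and 2.85 in those 3 classes.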

How the results depend on the processing

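For the 7 members with a main class, 21 ratios between libraries were recomputed under each alternative. Those of Hbegf, Tgfa, Egfr, Erbb2 and Erbb3 stayed on their side of 1. The exceptions, Nrg1 (TBI+PBS against sham) and Erbb4, had main ratios near 1 that moved far from it with cluster 10 unnamed. Nrg1 went from 1.07 to 0.534, and Erbb4 to 1.61 (TBI+PBS against sham) and 0.559 (TBI+IL-25 against TBI+PBS). Keeping doublets, taking only cells of at least 1000 UMIs, leaving members and lists out of the variable genes, and naming with 1 CPM added left all 21 within their counting intervals. Naming with 10 CPM added, which leaves cluster 10 unnamed, moved TBI+PBS against sham to 3.78 for Hbegf, 0.534 for Nrg1, 1.13 for Egfr and 1.61 for Erbb4, and TBI+IL-25 against TBI+PBS to 4.28, 0.802, 1.88 and 0.559. Weighing cells equally gave 5.77 for Hbegf and 1.15 for Erbb4 (TBI+PBS against sham), and 2.34 for Hbegf and 1.89 for Egfr (TBI+IL-25 against TBI+PBS). Size factors gave 2.54 for Hbegf and 1.97 for Egfr (TBI+IL-25 against TBI+PBS) and 0.635 for Tgfa in microglia-like cells (TBI+PBS against sham). Resolution 0.5 and the cells' own marker scores gave 2.13 and 2.12 for Hbegf (TBI+IL-25 against TBI+PBS). Apart from the naming setting, the cause was not tested. The naming settings were chosen after seeing the data. No paired analysis was possible because each group had 1 library. Depth limits Areg, Ereg and Erbb2 outside astrocyte-like cells, and the sham oligodendrocyte-like class of 45 cells.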
